A study of Homo sapiens with 4 samples.

Results

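The genes described here encode innate immune receptors of myeloid cells: Toll-like receptors, receptors for the Fc part of antibodies, C-type lectin receptors, sialic acid-binding Siglecs, leukocyte immunoglobulin-like receptors (LILR), the TREM family and the cytosolic NLRP sensors. They were chosen by name, as every gene on the array whose symbol starts with TLR, FCGR, FCER, CLEC, SIGLEC, LILR, NLRP or TREM (with a number after TLR, CLEC, SIGLEC and NLRP), together with FCAR. This gave 84 genes with 112 probes, of 19410 named genes and 41000 probes in all. NB4 is an established human acute promyelocytic leukemia (APL) cell line. The arrays hold 2 flasks of naive NB4 and 2 flasks of an NB4 line resistant to arsenic trioxide (ATO), which had been kept without ATO for 1 week. Both lines grew in RPMI with FBS, the sources used here name no engineered allele, and the resistant line is 1 clone. The clone is written NB4-EV-AsR1 in the methods and NB4-VM-AsR1 in the labels, and taking these for the same clone is an assumption.

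Innate receptors let phagocytes recognise microbes, antibody-coated particles and damaged cells without prior immunisation. Activating receptors of the Fc, TREM and lectin families signal through adaptor chains with an immunoreceptor tyrosine-based activation motif (ITAM), such as FCER1G and TYROBP, and the kinase SYK. Most Siglecs and the LILRB receptors carry inhibitory motifs (ITIM) that recruit phosphatases, and Toll-like receptors signal through MYD88 or TICAM1. In granulocytic and monocytic cells these families are acquired as the cells mature, and the APL blast is arrested at the promyelocyte stage.

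Between 27922 and 28244 probes per array were well above background, the flag that the scanner software sets for a spot clearly brighter than its surroundings. All 4 arrays lay on 1 slide, with the naive flasks in the first positions, so that line and position cannot be told apart. Of 10 promyelocyte markers, 9 were well above background on every array. All 10 were tested, with 2 called higher and 1 called lower. The log2 of the summed level of the mature neutrophil markers was 5.46 and 5.42 in the naive and 3.68 and 3.87 in the resistant flasks. This sum lies close to its brightest marker MMP9, which was called lower, while the other 5 of 6 tested markers were positive, 3 of them called higher, and the median log2 change was 1.199. The monocyte and macrophage sum was 2.04 and 1.99 against 3.03 and 3.17, with 3 tested markers positive (CX3CR1 called higher), 3 negative and a median log2 change of 0.04. The lymphoid sum was 1.80 and 1.94 against 0.80 and 0.88, with 2 tested markers positive and 5 negative, 3 of them called lower. The erythroid sum lay between -1.20 and -0.59, with 4 of 6 markers well above background on every array. Of 6 stromal markers none was so on every array and 4 were so on none. Called were 30% of the tested promyelocyte, 66.7% of the mature neutrophil, 16.7% of the monocyte and macrophage and 42.9% of the lymphoid markers. No erythroid or stromal marker was called, and over all named genes the share was 6.17%. The part of these markers in the results below was not tested. In RNA from bulk cultures, fewer cells with a transcript and less transcript per cell cannot be told apart.

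Of the 84 receptor genes, 48 (57.1%) had a probe with this flag in both flasks of the naive or the resistant line and were tested, against 14563 (75%) of all named genes. Of these 48, 45 were well above background on all 4 arrays. A further 34 genes were well above background on no array, and CLEC7A and NLRP14 were so on some arrays but in both flasks of neither line. The untested genes included TLR3, TLR5, TLR7, TLR8 and TLR10, the low-affinity IgG receptors FCGR3A and FCGR3B, the IgE receptors FCER1A and FCER2, SIGLEC1, SIGLEC9 and SIGLEC11, and LILRA5, LILRB1 and LILRB5. For these genes the arrays give an upper limit and no level. Each value below is the log2 intensity of a probe minus the 75th percentile of its array, so that 0 is the level of a fairly bright probe. Values of different probes are not compared. Each gene is given by its tested probe with the highest mean, and 9 genes had more than 1 tested probe, of which CLEC2D, NLRP12 and TLR6 had probes of both signs.

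A gene was called changed at an adjusted p below 0.05 from limma, over all 28221 probes tested, and a change of at least 2-fold. Of the 48 receptor genes, 6 (12.5%) were called, whereas 6.17% of the 14563 named genes were. TLR2, TREM1, CLEC4D and CLEC2B were lower in the resistant line, against 3.29% of all named genes called lower. LILRB2 and NLRP11 were higher, against 2.88% called higher. Counted by probe, 6 of 60 (10.0%) were called, against 5.27% of all probes tested. The 2 flasks of one line lay entirely above or below those of the other for 36 genes (75%), 21 of them with the resistant flasks above and 15 with them below, whereas this held for 56.8% of all named genes. The median log2 change of the receptor genes was 0.10, with 27 positive and 21 negative, beside a median of 0.00126 over all named genes. Without the first or the second naive flask 16 and 17 receptor genes were called, beside 13.2% and 16.1% of all probes tested. Without the first or the second resistant flask the counts were 2 and 3, beside 2.63% and 2.59% of all probes. In each of these fits 1 line has a single flask, which is assumed to vary like the flasks of the other line. Another background correction (normexp with an offset of 50) gave 0 called receptor genes from limma, with 2 at an unadjusted p below 0.05. The naive flasks differed more from each other than the resistant flasks in 40 of the 48 genes, with a median difference of 0.53 against 0.12 on the log2 scale (0.36 and 0.16 over all named genes).

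**Figure D1:**
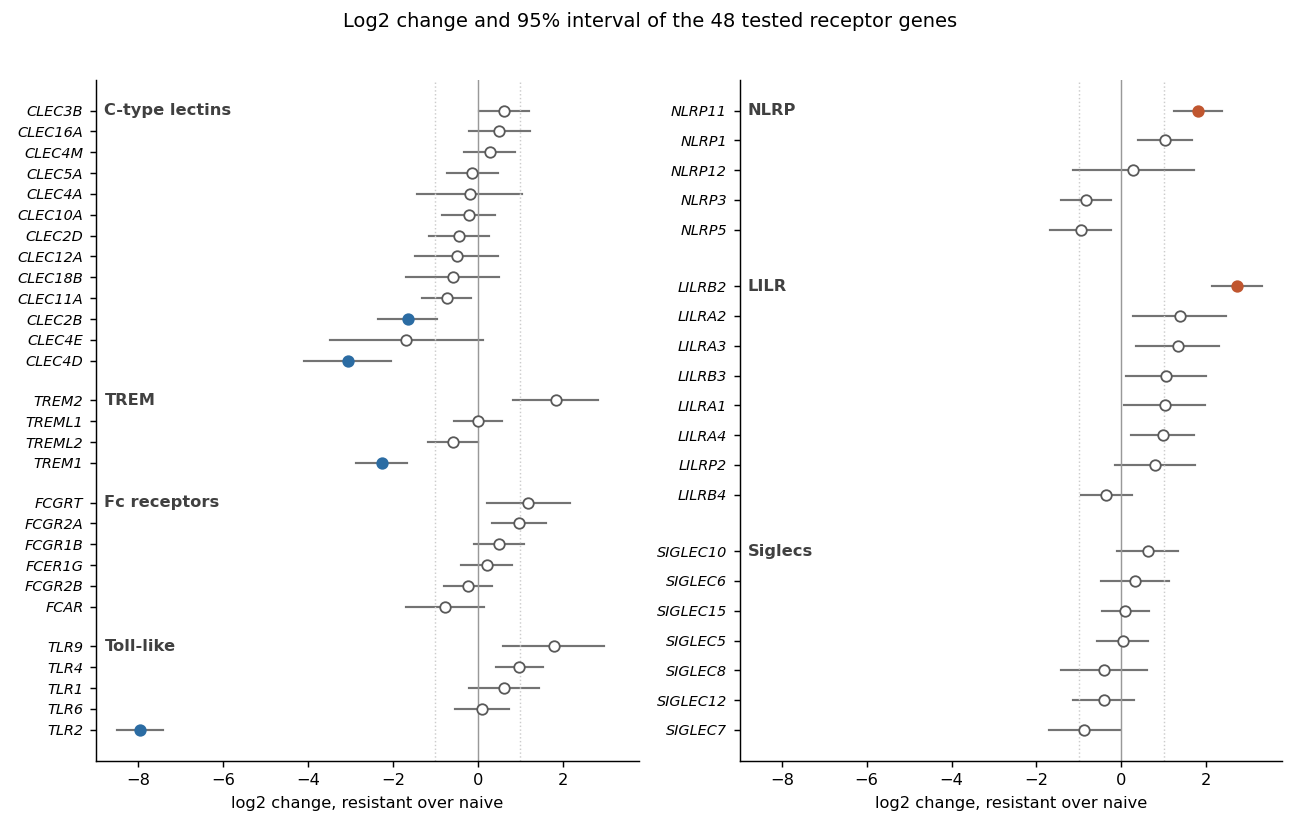
Log2 change (resistant over naive) of the 48 tested receptor genes, grouped by family, with points for the limma estimate and bars for its 95% interval. Filled points are called (blue lower, red higher), and dotted lines mark a 2-fold change. TLR2 lies apart at -7.96, 7 of 8 LILR genes lie above 0 and 10 of 13 C-type lectin genes lie below 0.

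Among the Toll-like receptors, TLR2, the receptor for bacterial lipoproteins that works as a pair with TLR1 or TLR6, had the largest difference of all receptor genes tested. Its level was -0.55 and -0.45 in the naive flasks and -8.44 and -8.49 in the resistant flasks. The probe, at chr4:154626406-154626465 of hg19, was well above background in both naive flasks but in neither resistant flask. The difference fitted by limma was -7.96 (standard error 0.22, adjusted p = 0.000509). It therefore has no measured lower end. With the scanner software's background subtraction, TLR2 was at least 62.7-fold lower in the resistant line. With normexp its log2 change was -2.45, and it was -3.45 where bright local backgrounds were reset first. The partners of TLR2 were measured in both lines. TLR1 was at -1.76 and -2.55 in naive and at -1.54 and -1.55 in resistant flasks (log2 change 0.61, 95% interval -0.21 to 1.43). TLR6 was at -3.44 and -3.88 against -3.52 and -3.60 (log2 change 0.10, 95% interval -0.55 to 0.74), and its lines overlapped. Neither was called.

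TLR4, the lipopolysaccharide receptor, had 3 tested probes, which were all higher in the resistant line, by 0.75, 1.01 and 0.98 on the log2 scale. Its brightest probe gave -1.45 and -1.52 in naive and -0.50 and -0.50 in resistant flasks. This change (standard error 0.22, 95% interval 0.44 to 1.53, adjusted p = 0.0773 from limma) was not called. TLR9, the endosomal receptor for unmethylated CpG DNA, was at -4.49 and -3.18 in naive and at -2.21 and -1.88 in resistant flasks. The log2 change was 1.79 (95% interval 0.60 to 2.97, adjusted p = 0.119), and the naive flasks were 1.31 apart. Of the 5 tested Toll-like receptors, TLR2 was the only one with a negative change by its brightest probe. The second TLR6 probe was negative as well, and the mean over the TLR6 probes was -0.10.

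**Figure D2:**
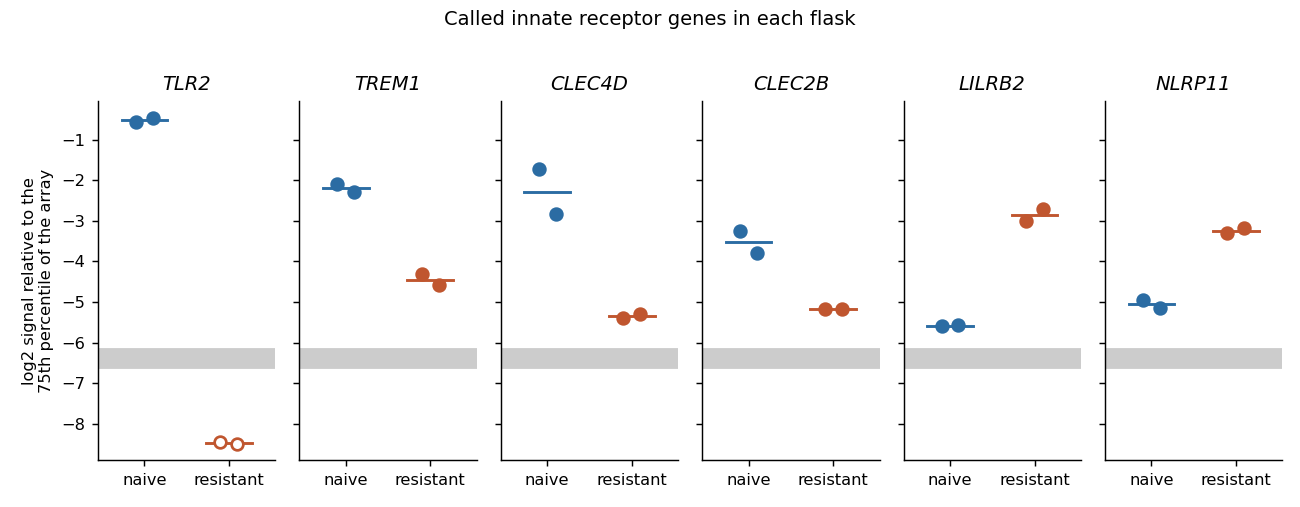
Level of the 6 called receptor genes in each flask (log2 intensity minus the 75th percentile of the array), with 1 point per flask and a bar at the mean of each line. Open points were not well above background, and the grey band spans the lowest signal well above background on the 4 arrays (-6.63 to -6.17). In each panel the 2 resistant flasks lie clear of the 2 naive flasks.

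In the TREM family, TREM1 and TREM2 pair with the same adaptor, TYROBP. TREM1, which amplifies inflammatory signalling in neutrophils and monocytes, was lower in the resistant line. Its level was -2.09 and -2.29 in naive and -4.32 and -4.59 in resistant flasks, all well above background. The difference was 4.80-fold (log2 change -2.26, standard error 0.24, adjusted p = 0.00758 from limma). With normexp the log2 change of TREM1 was -0.74, and it was -1.27 where bright local backgrounds were reset first. TREM2, a lipid-binding receptor of macrophages, differed the other way without being called. It was at -7.42 and -6.64 in naive flasks, where it was not well above background, and at -4.82 and -5.57 in resistant flasks (adjusted p = 0.0727), with a lower bound of 2.10-fold. Whether the changes of TREM1 and TREM2 differ was not tested. TREML2 was at 0.75 and 1.01 in naive and at 0.26 and 0.34 in resistant flasks (log2 change -0.58, 95% interval -1.16 to 0.01). TREML1, a receptor of platelets, was at -4.55 and -4.36 against -4.48 and -4.39, and the lines overlapped. Without the first or the second resistant flask TREM1 missed the threshold (adjusted p = 0.0504 and 0.0791), with log2 changes of -2.40 and -2.13.

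Of the 13 tested C-type lectin genes, 10 were negative and 2 (15.4%) were called, both lower. Of all 14563 named genes 7273 were negative and 3.29% were called lower. Of the 13, 7 were negative without the second naive flask and 6 with normexp. CLEC4D (also called MCL or Dectin-3) and CLEC4E (Mincle) recognise mycobacterial glycolipids and signal through FCER1G. CLEC4D was at -1.72 and -2.83 in naive and at -5.39 and -5.29 in resistant flasks (log2 change -3.06, standard error 0.41, adjusted p = 0.0164), 8.34-fold lower. CLEC4E was at 0.73 and -1.48 in naive and at -1.98 and -2.14 in resistant flasks. Both resistant flasks lay below both naive flasks, but the naive flasks were 2.21 apart and the log2 change of -1.68 (95% interval -3.49 to 0.12, adjusted p = 0.291) was not called. CLEC2B (AICL), the ligand of the natural killer cell receptor KLRF1, was at -3.25 and -3.80 in naive and at -5.18 in both resistant flasks (log2 change -1.65, standard error 0.27, adjusted p = 0.0346), 3.15-fold lower. Its probe is at chr12:10010087-10010146 of hg19. With normexp the log2 changes of CLEC4D and CLEC2B were -0.87 and -0.16. They were -1.60 and -0.64 where bright local backgrounds were reset first. CLEC4D missed the threshold without the first resistant flask (adjusted p = 0.0551, log2 change -3.01), and CLEC2B did so without the first or the second (adjusted p = 0.232 and 0.242, log2 changes of -1.65 and -1.65).

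The other lectin genes were not called. CLEC2D (LLT1), the ligand of the receptor KLRB1, was bright in all flasks, at 5.21 and 4.66 in naive and 4.39 and 4.60 in resistant cells, with 4 tested probes between -0.58 and 0.22. One of these probes lies on chromosome 5 in the file, apart from the gene. CLEC11A, a secreted growth factor of blood progenitors, was at 5.40 and 5.26 against 4.70 and 4.50 (log2 change -0.73, 95% interval -1.31 to -0.15, adjusted p = 0.176). CLEC12A, an inhibitory receptor found on myeloid blasts, was at -5.51 and -5.84 against -5.68 and -6.67, and was well above background in only 1 of the resistant flasks. The inhibitory receptor CLEC4A and the TYROBP-coupled CLEC5A overlapped between the lines, as did CLEC10A and CLEC18B. CLEC3B, CLEC16A and CLEC4M, of which CLEC16A is no surface lectin but an endosomal protein, were positive, at 0.62, 0.51 and 0.28.

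Of the Fc receptor genes none was called, and 4 of 6 were positive. FCGR2A, the activating low-affinity IgG receptor, was at -2.31 and -2.74 in naive and at -1.59 and -1.53 in resistant flasks (log2 change 0.97, 95% interval 0.33 to 1.61, adjusted p = 0.119). Its inhibitory counterpart FCGR2B was at -3.74 and -3.92 against -4.07 and -4.05 (log2 change -0.23, 95% interval -0.79 to 0.33), and a second probe gave -1.28. The FCGR2 and FCGR1 genes are near-identical copies, so that the values of FCGR2A, FCGR2B and FCGR1B are uncertain. FCGRT, the neonatal Fc receptor that rescues IgG and albumin from lysosomes, was at 0.27 and 1.32 in naive and at 1.94 and 2.03 in resistant flasks (log2 change 1.19, 95% interval 0.21 to 2.18, adjusted p = 0.189). FCGR1B was at 2.10 and 2.001 against 2.42 and 2.69 (log2 change 0.50, 95% interval -0.08 to 1.09). FCER1G, the ITAM chain shared by several activating receptors, was at -0.16 and 0.16 against 0.27 and 0.15, and the lines overlapped (95% interval -0.39 to 0.81). FCAR, the IgA receptor, was at -3.43 and -2.64 against -3.53 and -4.06 (log2 change -0.76, 95% interval -1.68 to 0.15).

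Of the 8 tested LILR genes, 7 were positive and 1 (12.5%) was called, with a median log2 change of 1.04. Of all 14563 named genes 7290 were positive and 6.17% were called. LILRB2, an inhibitory receptor for HLA class I molecules, was at -5.59 and -5.58 in naive and at -3.01 and -2.72 in resistant flasks (log2 change 2.72, standard error 0.23, adjusted p = 0.00413), 6.59-fold higher. Its probe is at chr19:54778329-54778388 of hg19. With normexp the log2 change of LILRB2 was 1.13, and it was 1.32 where bright local backgrounds were reset first. LILRA2, an activating receptor for microbially cleaved antibodies, was at -3.22 and -2.002 against -1.17 and -1.30 (log2 change 1.38, 95% interval 0.28 to 2.48, adjusted p = 0.178). LILRA3, which is secreted, was at -5.48 and -4.61 against -3.996 and -3.43 (log2 change 1.33, 95% interval 0.36 to 2.31, adjusted p = 0.151). The inhibitory LILRB3 was at -3.10 and -2.33 against -1.35 and -1.98 (log2 change 1.05, 95% interval 0.11 to 1.99).

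LILRA1, LILRA4 and the pseudogene LILRP2 changed on the same side of 0, at 1.03, 0.98 and 0.79 on the log2 scale, and none was called. For LILRA1, LILRA2, LILRA3, LILRA4, LILRB3 and LILRP2 the second naive flask lay between the first naive flask and both resistant flasks. LILRB4, an inhibitory receptor of monocytes, was the exception, at -5.36 and -5.22 in naive and -5.50 and -5.78 in resistant flasks (log2 change -0.35, 95% interval -0.94 to 0.25). With normexp its change was 0.26. The LILR genes are close relatives, and probes can bind more than 1 of them. The probes of LILRB3 and LILRA4 had 47 identical bases of 60, and shared the 24-base run GTGACCCTGCTGTGTCAGTCATGG. Those of LILRP2 and LILRA3 shared a run of 19 bases, so these 4 values are uncertain. The probe of LILRB2 shared at most 12 bases in a row with any other LILR probe on the array, that of LILRB5. Probes were compared only with each other and not with transcripts. Binding to transcripts of other LILR genes was therefore not tested for any probe, that of LILRB2 included.

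**Figure D3:**
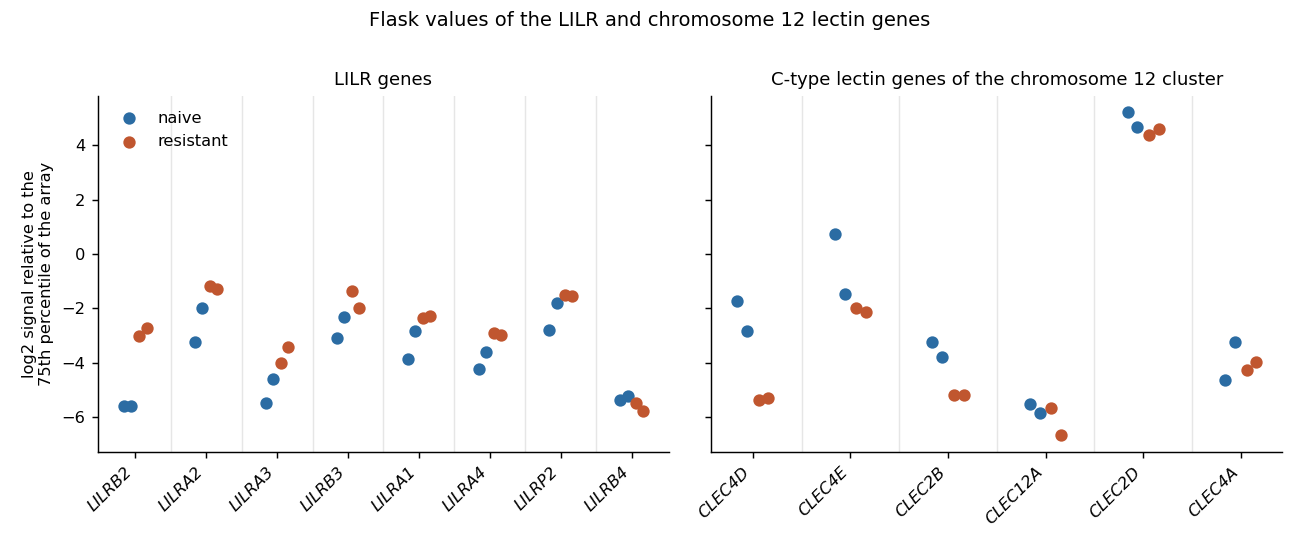
Levels in each flask (log2 intensity minus the 75th percentile of the array) of the 8 tested LILR genes, left, and of the 6 tested C-type lectin genes of the chromosome 12 cluster, right, with 1 point per flask. For every LILR gene but LILRB4 the resistant flasks lie above the naive flasks, and for CLEC4D, CLEC4E, CLEC2B and CLEC2D they lie below.

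Sequences of promoters, from 250 bases before to 50 after the start of the gene, were taken from RefSeq on GRCh38.p14. Pairs of similar promoters are printed 5′ to 3′ on the strand of the gene. The probes of LILRB2 and LILRA2 were both higher, and those of LILRB3 and LILRB4 differed in sign. Identical bases were counted after an end-to-end alignment with gaps, and not position by position. The capitals mark GAGGAA or its reverse complement TTCCTC, a sequence bound by PU.1 of myeloid cells and called the core here. The shorter GGAA, which ETS factors share, was not searched and also stands outside the capitals. LILRB2 (chr19:54280579-54280878, minus strand) and LILRA2 (chr19:54573540-54573839, plus strand) were identical at 245 of 300 bases (81.7%), and neither holds the core. LILRB3 (chr19:54222958-54223257, minus strand) and LILRB4 (chr19:54662735-54663034, plus strand) were identical at 241 bases (80.3%), with the core starting at -115 in LILRB3 and at -236 in LILRB4.
LILRB2: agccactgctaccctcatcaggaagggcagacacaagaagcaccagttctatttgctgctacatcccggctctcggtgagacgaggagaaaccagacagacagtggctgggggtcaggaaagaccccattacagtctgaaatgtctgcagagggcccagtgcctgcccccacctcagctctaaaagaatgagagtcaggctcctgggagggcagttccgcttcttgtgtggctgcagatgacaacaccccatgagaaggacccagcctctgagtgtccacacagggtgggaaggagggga
LILRA2: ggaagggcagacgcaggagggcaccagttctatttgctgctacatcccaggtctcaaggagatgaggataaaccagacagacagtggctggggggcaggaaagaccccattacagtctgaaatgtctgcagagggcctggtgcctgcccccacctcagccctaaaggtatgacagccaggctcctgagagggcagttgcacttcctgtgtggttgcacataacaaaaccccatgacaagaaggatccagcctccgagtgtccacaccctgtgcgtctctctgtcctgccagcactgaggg
LILRB3: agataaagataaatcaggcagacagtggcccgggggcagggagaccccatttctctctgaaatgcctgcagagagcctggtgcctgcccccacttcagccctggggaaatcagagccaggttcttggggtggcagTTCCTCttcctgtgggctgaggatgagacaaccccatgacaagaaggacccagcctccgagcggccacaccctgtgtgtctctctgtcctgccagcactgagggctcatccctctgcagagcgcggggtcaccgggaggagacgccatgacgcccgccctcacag
LILRB4: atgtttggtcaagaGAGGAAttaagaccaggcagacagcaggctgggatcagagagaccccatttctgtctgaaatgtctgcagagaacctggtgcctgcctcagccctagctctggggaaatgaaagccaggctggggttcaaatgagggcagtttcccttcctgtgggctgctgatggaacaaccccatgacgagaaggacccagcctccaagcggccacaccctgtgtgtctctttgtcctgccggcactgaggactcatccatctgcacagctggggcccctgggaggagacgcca

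Over the 28 pairs of LILR promoters in the table, the number of identical bases ran from 161 to 253. The likest pair was LILRA1 and LILRB1 (84.3%), of which LILRA1 was well above background on all 4 arrays and LILRB1 on none. The core GAGGAA, searched on both strands, stood in 3 of 8 LILR promoters, in 32 of 63 promoters of receptor genes (50.8%) and in 27.9% of all 35116 promoters. The C/EBP motif TTGCNNAA stood in 9 of 63 (14.3%) against 10.46% of all promoters, and the AP-1 motif TGANTCA in 7 of 63 (11.1%) against 7.71%. Of the called genes, TLR2, TREM1, LILRB2 and NLRP11 were in the table, and only TREM1 held the core, starting at 30. A match is a run of letters and no measured binding site.

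The receptor genes lie in clusters, and the tested genes were put in the order of GRCh38.p14. In the lectin cluster of chromosome 12, from CLEC4A to CLEC7A, all 6 tested receptor genes were negative, with a median of -1.08, and CLEC4D and CLEC2B were called lower. With normexp CLEC4A and CLEC12A were positive, at 0.04 and 0.19, and CLEC4A was at 0.51 without the second naive flask. Of 9 other tested genes there, 7 were negative, with a median of -0.54, and RIMKLB, an enzyme of N-acetylaspartylglutamate synthesis (-4.26), and the lectin-like CLECL1 (-2.67) were called lower. In the LILR cluster of chromosome 19, from LILRB3 to FCAR, 6 of 8 tested receptor genes were positive, with a median of 1.00. LILRA3 could not be placed there. The 8 other tested genes of that stretch, among them LAIR1 and the KIR genes, had 4 positive and 4 negative changes, a median of -0.07, and no call. In the Siglec cluster of chromosome 19, 3 of 6 receptor genes and 1 of 7 other genes were positive, and none was called.

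**Figure D4:**
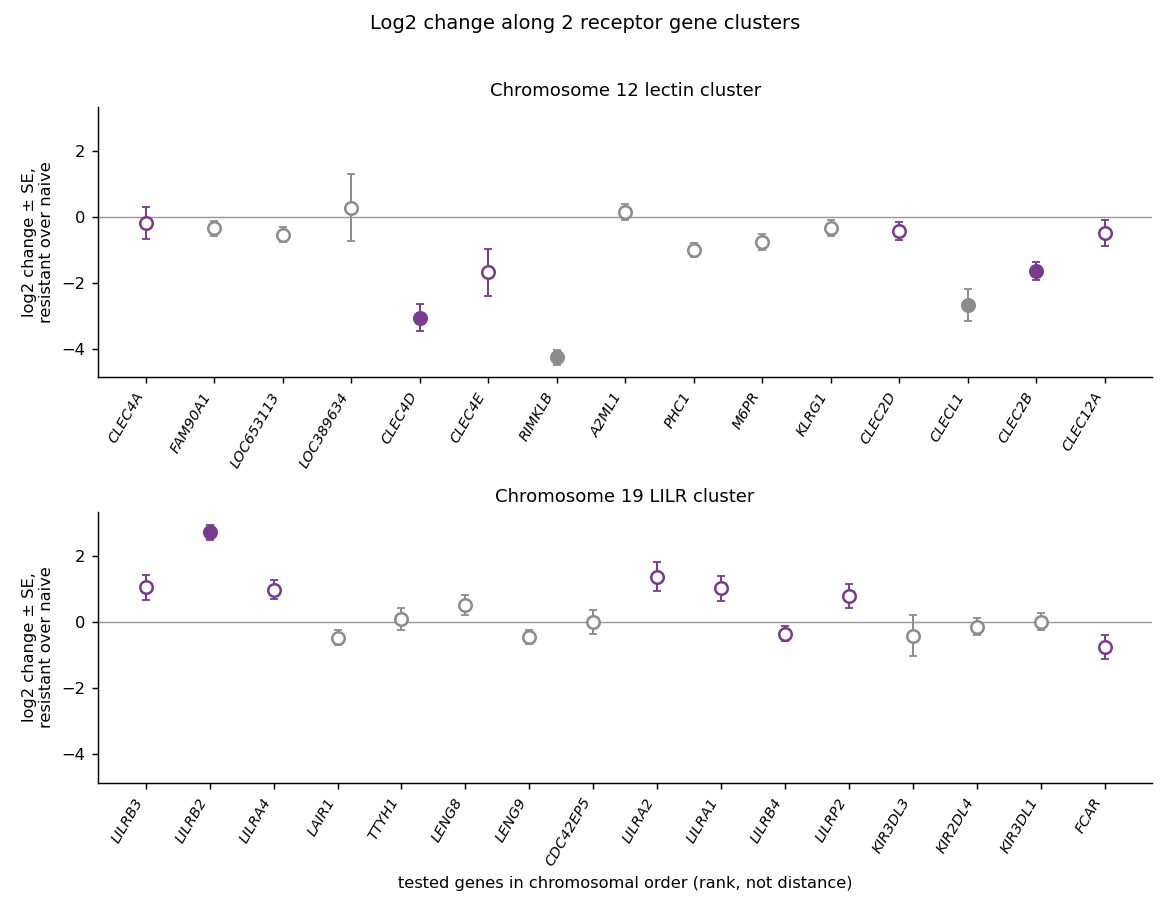
Log2 change (resistant over naive, ± standard error) of the tested genes in chromosomal order, by rank and not by distance, in the lectin cluster of chromosome 12 and the LILR cluster of chromosome 19. Purple points are receptor genes, grey points are other genes, and filled points are called. The points of all receptor genes lie below 0 in the upper panel, and LILRB2 is the one filled point of the lower panel.

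None of the 7 tested Siglec genes was called, and their log2 changes ran from -0.87 to 0.62. SIGLEC7, an inhibitory receptor of natural killer and myeloid cells, was lower with both of its probes, by -0.87 and -1.14. Its brighter probe was at -5.31 and -4.51 in naive and at -5.72 and -5.83 in resistant flasks (95% interval -1.70 to -0.04, adjusted p = 0.246). With normexp its change was 0.15. SIGLEC10 was at -3.01 and -3.59 against -2.61 and -2.75 (log2 change 0.62, 95% interval -0.09 to 1.34). SIGLEC5 was at -1.53 and -1.87 against -1.73 and -1.61, SIGLEC6 and SIGLEC8 overlapped between the lines as well, and the log2 changes of SIGLEC12 and SIGLEC15 were -0.41 and 0.10.

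Among the NLRP genes 5 were tested and NLRP11, a primate member of the family, was called (20%, against 6.17% of all named genes). It was at -4.96 and -5.15 in naive and at -3.31 and -3.19 in resistant flasks (log2 change 1.81, standard error 0.23, adjusted p = 0.0138), 3.50-fold higher. With normexp the log2 change of NLRP11 was 0.83, and it was 0.87 where bright local backgrounds were reset first. NLRP1, an inflammasome sensor, was higher with both of its probes, by 1.02 and 0.90. Its brighter probe was at -4.23 and -4.52 against -3.20 and -3.50 (95% interval 0.39 to 1.66, adjusted p = 0.103). NLRP3, the inflammasome sensor of potassium efflux and crystals, was at 2.95 and 2.66 in naive and at 1.95 and 2.00 in resistant flasks (log2 change -0.83, 95% interval -1.42 to -0.24, adjusted p = 0.141). NLRP5, known from oocytes, was at -4.76 and -4.15 against -5.37 and -5.45, and NLRP12 overlapped between the lines. NLRP11 missed the threshold without the first or the second resistant flask (adjusted p = 0.126 and 0.165, log2 changes of 1.87 and 1.75).

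Grouped by known signalling, 18 activating receptors were tested, with 12 positive and 6 negative changes. Of these, 3 (TLR2, TREM1 and CLEC4D, 16.7%) were called lower and 0 higher, against 3.29% and 2.88% of all named genes. Of 13 inhibitory receptors 6 were positive and 7 negative. LILRB2 (7.69%) was called higher and 0 genes lower, against 2.88% and 3.29% of all named genes. In either direction 6.17% of all named genes were called. The median log2 change was 0.36 in the activating and -0.19 in the inhibitory group. The inhibitory group counts TREML1 and the activating group the adaptor chain FCER1G, and both assignments are uncertain. Whether the 2 groups differ was not tested.

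Genes that act with these receptors were taken from 4 lists. Of 103 tested genes 6 were called higher and 2 lower, together 7.77%, near the 6.17% of all named genes. Their counts without a flask moved with those over all probes given above, to 21 and 21 without the first or the second naive flask and to 4 and 5 without the first or the second resistant flask. Of 25 tested genes of Toll-like receptor signalling, 17 were positive and 2 (8%) were called, both higher. LY96 (MD-2), the part of the TLR4 complex that binds lipopolysaccharide, was at -6.69 and -6.32 in naive flasks, where it was not well above background, and at -2.14 and -1.74 in resistant flasks, at least 19.98-fold higher (adjusted p = 0.00149). IRF5, a transcription factor downstream of MYD88, was at -1.72 and -2.81 against 1.16 and 1.17 (log2 change 3.43, standard error 0.40, adjusted p = 0.0108). The adaptor MYD88 was not called (log2 change 1.02, adjusted p = 0.104), nor was the co-receptor CD14 (-0.50, adjusted p = 0.300).

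Of 26 tested genes of Fc, TREM, LILR and lectin receptor signalling, 18 were negative and 1 was called. VAV3, a guanine nucleotide exchange factor downstream of SYK, was at -0.19 and -0.14 in naive and at 2.41 and 2.62 in resistant flasks (log2 change 2.68, standard error 0.22, adjusted p = 0.00393). The adaptor TYROBP (log2 change 0.72, adjusted p = 0.196) and the kinase SYK (-1.23, adjusted p = 0.0751) were not called. Of 21 tested inflammasome and NOD-like genes 3 were called. IL18, a cytokine matured by inflammasomes, was at least 7.63-fold higher, from -7.47 and -8.24 to -3.32 and -3.34 (adjusted p = 0.00245). The sensor NLRC4 was higher, with a log2 change of 1.65 (adjusted p = 0.0197). The muramyl dipeptide sensor NOD2 was lower, from -3.58 and -2.37 to -6.43 and -6.13 (log2 change -3.31, adjusted p = 0.0167), with 1 resistant flask well above background. Of 31 other innate surface receptors tested, 23 were negative, the scavenger receptor MARCO was called higher (log2 change 1.87, adjusted p = 0.0128) and SIRPG, a CD47-binding receptor, lower (-2.17, adjusted p = 0.00954). Each of these p-values is from limma. The share called was 3.85% for Fc, TREM, LILR and lectin receptor signalling and 14.3% for inflammasome and NOD-like genes. It was 6.45% for the other surface receptors and 6.17% for all named genes.

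**Figure D5:**
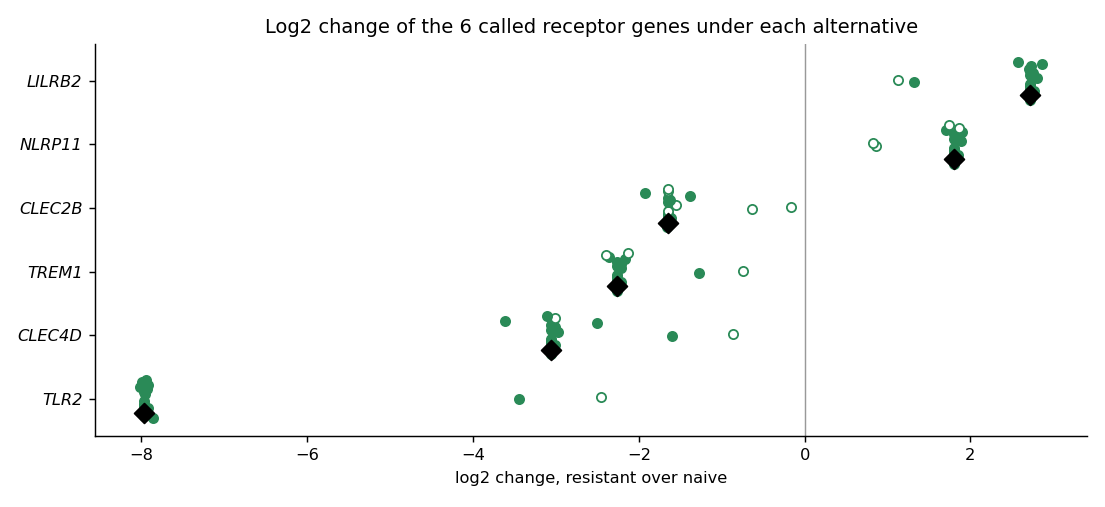
Log2 change (resistant over naive) of the 6 called receptor genes as given in the text (black diamonds) and under each other processing of the arrays or left-out flask (circles, filled where the gene stayed called). Calls of the methods' t-test without adjustment rest on its raw p-value. All values keep the sign of the diamond. The smallest changes come from a different background correction (normexp), which gave -2.45 for TLR2 and 1.13 for LILRB2. It gave -0.87 for CLEC4D, 0.83 for NLRP11, -0.74 for TREM1 and -0.16 for CLEC2B, all less than 2-fold.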

How the data were processed

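Cy3-labeled RNA of 2 flasks a line was measured on 1-colour Agilent whole human genome arrays (design 014850). Scanner output of Feature Extraction 10.5.1.1 was deposited by the authors, and its processed signal is a linear intensity per spot after background subtraction. The authors also deposited log2 values, shifted in GeneSpring GX 11 to the 75th percentile. Here log2 of the processed intensity minus the 75th percentile of each array was computed in R 4.3.3. Outlier spots were dropped, and replicate spots averaged. Against the deposited log2 table these values had the same scale and direction (Pearson's r across probes of at least 0.9998 on each array). Tested probes were well above background in both flasks of the naive or the resistant line. The comparison used limma 3.58.1 (lmFit and eBayes) with Benjamini-Hochberg adjustment, and the procedure was tested on simulated data. With 2 flasks a line the smallest exact two-sided permutation p is 0.333, and limma's calls draw on a spread pooled across probes. The number of arrays limits the precision. A lower bound sets the mean of the bright line against the lowest signal well above background on each array of the dim line. Where the probe's own signal was higher, that was used. The bound holds for the scanner software's background subtraction and not for normexp. Every receptor gene could be named, and of the other lists the called genes. CD14, MYD88, TYROBP and SYK were named after their values were seen, as known partners. The receptor genes and all lists were chosen with earlier results of these data known. Probe positions are those of hg19 in the scanner files, and 103 of 112 probes matched a current symbol in RefSeq. FCGRT, which is also on the list of other innate receptors, was counted once.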

Additional observations from a re-analysis of the deposited data

Results flagged for a closer look

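Signal outside the tested probes was seen for 3 receptor genes, on single resistant arrays above both naive values. The CLEC7A (Dectin-1, the beta-glucan receptor) probe A_24_P227415 was well above background at -5.40 in the first resistant flask, beside -8.88 in the second and -8.66 and -8.47 in the naive flasks. The other CLEC7A probes were not well above background on any array. The second LILRB3 probe, A_32_P70158, was well above background at -6.38 in the second resistant flask, beside -7.45 in the first and -8.61 and -8.41 in the naive flasks. The second TREM2 probe, A_24_P12397, was well above background at -5.35 in the first resistant flask, beside -6.34 in the second and -6.95 and -7.73 in the naive flasks, the same order of lines as with the tested TREM2 probe. None of these was tested, since a signal on 1 array of a line gives no spread.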

How the results depend on the processing

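Over 17 alternatives the 6 called receptor genes kept their direction wherever they had a value. TLR2 stayed called in 14 of 16, LILRB2 in 15, CLEC4D in 14, TREM1 in 13, NLRP11 in 12 and CLEC2B in 10 of 17. These counts take in 1 alternative with a looser rule, the methods' t-test judged on its raw p-value. All 6 genes count as called there, and none of them does once that test is adjusted. Normexp background correction with an offset of 50 gave 0 calls from limma in receptor genes in either direction, with 2 at an unadjusted p below 0.05, and 0 calls in the 103 signalling and related genes. It moved the median log2 change of all probes from -0.02 to 0.13. Over all probes it also gave 0 calls, with 929 probes under an unadjusted p of 0.05. Resetting bright local backgrounds before normexp left 1 receptor gene called higher and 3 lower, and NLRP11 and CLEC2B were lost. Scale normalization gave 4 receptor genes called higher. Testing only probes well above background on all 4 arrays gave 5 calls among the signalling and related genes, against 8. After Benjamini-Hochberg adjustment the methods' t-test gave 0 calls in either direction and in both sets, with 12 receptor genes at an unadjusted p below 0.05. The causes of these differences were not tested. Leaving out each flask in turn gave 2 to 17 receptor genes called (1 to 12 higher, 1 to 8 lower) and 4 to 21 signalling and related genes, beside 2.59% to 16.1% of all probes. With the replicate number as a block, 6 receptor genes were called (2 higher, 4 lower) and 9 signalling and related genes, and no call of a receptor gene changed. Across probes, the deviations of the first flasks from their line means correlated at 0.12 between the lines. The second flasks mirror the first, and this is too little to show that the numbers pair the flasks. The median log2 change of receptor genes was -0.03 with no filter on dim probes, against 0.10. Of the 48 tested receptor genes, 15 changed sign under at least 1 alternative, none of them called. The slide was not used as a block, as all arrays lay on 1 slide. Signal over background limits TLR2 and TREM2, which were not well above background in 1 line, and the 36 receptor genes that were not tested.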
